A study of Homo sapiens with 12 samples.

Results

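The genes described here are 60 genes of mitosis and the kinetochore, taken by symbol from a list out of the 60603 genes of a count table. They were placed in 11 roles: cyclins with CDK1 and CDC25 phosphatases, other mitotic kinases, the spindle checkpoint, the chromosomal passenger complex, the anaphase-promoting complex or cyclosome (APC/C) with separase, the inner and the outer kinetochore, kinesins, spindle and cytokinesis proteins, transcription factors, and chromosome structure. The members and roles were chosen with earlier results of these data known. All 60 genes were found under 1 identifier each. All 60 also passed the filter on low counts, after which 17775 genes were tested, so no member was left out of any value below. The lowest member count in any library was 99 and the highest was 10713.

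RNA was measured in T24 cells, a long-established human bladder cancer line, by poly(A) RNA-seq in 12 libraries. The study concerns AlissAID, an auxin-inducible system that sends an untagged endogenous protein to a ubiquitin ligase by way of a binding protein, and 5-Ad-IAA is the auxin derivative that serves as its inducer. The 4 groups of 3 libraries were WT cells without treatment, WT cells with 5-Ad-IAA, NS1 cells without treatment and NS1 cells with 5-Ad-IAA. The labels do not spell out NS1, and which parts of the degradation system the WT cells carry, whether NS1 is 1 clone, and the dose and duration of 5-Ad-IAA are not given in the sources used here. The labels number the replicates but do not say that they were separate cultures, so the p-values below measure the spread between these libraries, which may be technical.

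Mitosis is driven by cyclin-dependent kinase 1 bound to cyclins, and further kinases build the spindle and attach it to chromosomes. The kinetochore is the protein assembly on each centromere that holds spindle microtubules, and the spindle checkpoint restrains the APC/C until the chromosomes are attached. The APC/C then marks cyclin B and securin for destruction, which frees separase to part the sister chromatids. Many of these genes are transcribed late in the cell cycle, and the DREAM and MuvB complexes, B-MYB and FOXM1 act on their promoters. In bulk RNA, fewer cells in a cell cycle phase and less RNA per cell cannot be told apart.

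Library totals ran from 10593934 to 20266996 counts, and replicate 1 was the deepest in each group. Levels are given as normalised CPM, which is read counts scaled to library size with TMM factors (the trimmed mean of M values). Mitochondrial transcripts took 2.14% ± 0.776 (SD, n = 3) of counts in untreated and 2.13% ± 0.657 in treated WT cells, against 1.04% ± 0.266 in untreated and 1.25% ± 0.219 in treated NS1 cells. The T24 markers KRT7, KRT8, KRT18 and CD44 had at least 450 CPM in all libraries. CD44 had 833 ± 52.6 CPM in untreated and 516 ± 74.7 CPM in treated NS1 cells (SD, n = 3). Over all libraries KRT19 ran from 175 to 631 CPM, CDH2 from 80 to 191, PPARG from 39.5 to 106, GATA3 from 22.2 to 105 and VIM from 23.5 to 87.7. The basal cell markers KRT5 and TP63 had no counts and KRT14 at most 1. Of the umbrella cell markers UPK3A had no counts, KRT20, UPK1A and UPK1B at most 5 in a library, and UPK2 up to 42 (2.3 CPM). Of the leukocyte markers PTPRC and CD3E had at most 1 count in a library while CD14 reached 2.71 CPM and CD68 23.6 CPM, and the 5 fibroblast markers together reached at most 4.4 CPM.

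With inducer in NS1 cells, 60 of 60 genes were lower and 58 passed the test (edgeR quasi-likelihood test, with a threshold of 0.05 on the p-value adjusted by Benjamini-Hochberg), all 58 of them lower. Over all genes tested, 3.39% were called lower and 6.15% in either direction. The median log2 fold change of the 60 genes was -0.70, or 61.6% of the untreated level, against a median of 0.01 over all genes. Summed over the 60 genes, the level was 6244.4 ± 293.72 CPM (SD, n = 3) in untreated and 3931.9 ± 298.77 CPM in treated NS1 cells, with 6959.5 ± 240.68 CPM in untreated and 6827.5 ± 214.67 CPM in treated WT cells. The NS1 libraries held 6583.5, 6069 and 6080.7 CPM without and 4239.3, 3913.8 and 3642.6 CPM with inducer, so the sums did not overlap.

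The falls were close to each other in size. The middle of the distribution, from the lower to the upper quartile, ran from -0.76 to -0.63, the SD over the 60 genes was 0.11, and the standard error of 1 gene was between 0.08 and 0.21. No gene fell by 2-fold or more. The extremes were PLK4 at -0.94, or 52.0% of the untreated level, and CDC25B at -0.29, or 81.5%. In each of the 60 genes the 3 treated libraries lay below the 3 untreated ones, which was so for 14% of all genes tested. Within the pairs of libraries with the same replicate number, all 60 genes were lower in pair 1, in pair 2 and in pair 3, with medians of -0.68, -0.67 and -0.74.

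**Figure D1:**
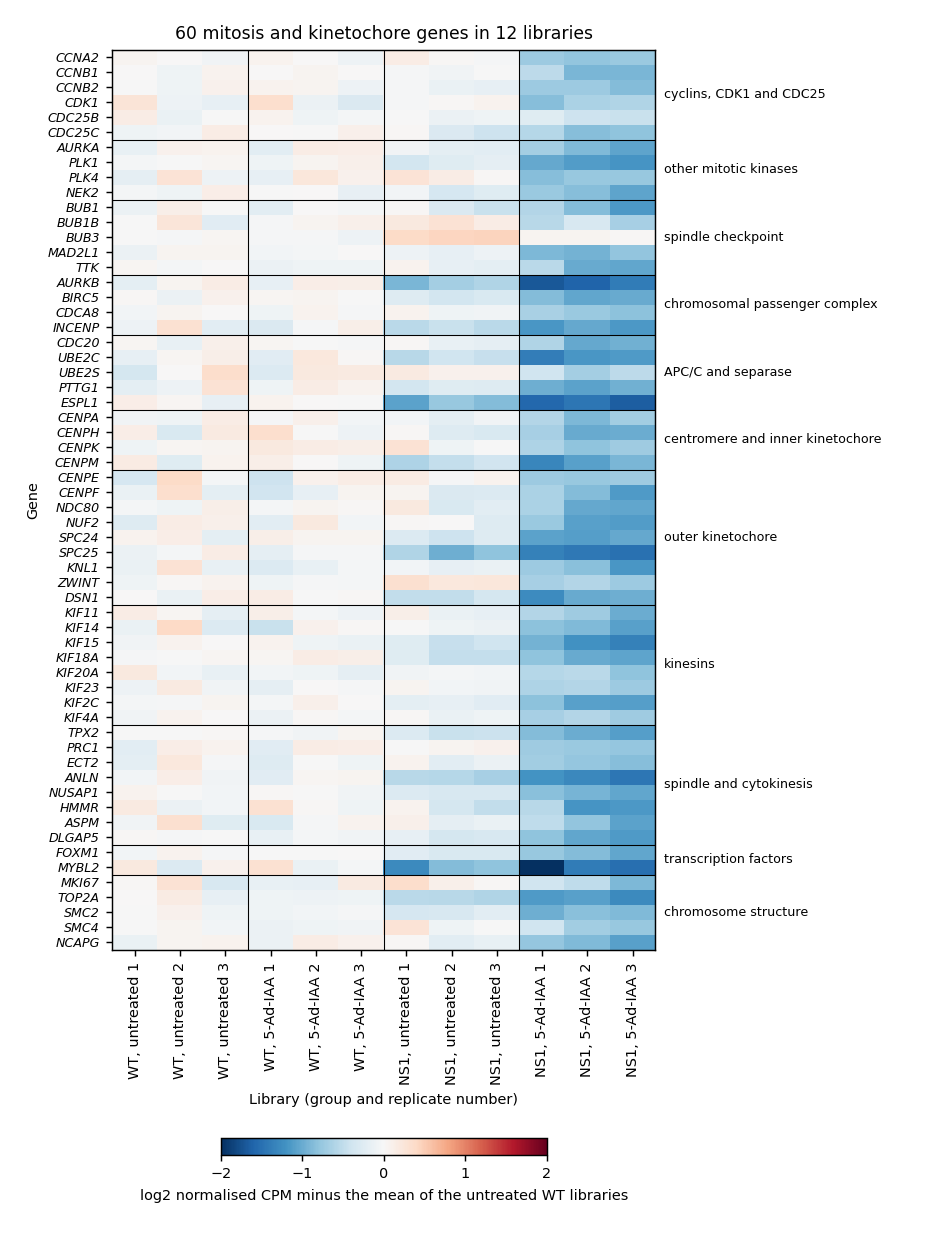
Log2 normalised CPM of the 60 genes (rows, by role) in each of the 12 libraries (columns), as the difference from the mean of the 3 untreated WT libraries. The 3 treated NS1 libraries are lower across nearly all rows, MYBL2, ESPL1 and AURKB are also low in untreated NS1 cells, and BUB3 is high there.

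The genes that did not pass the test were CDC25B (adjusted p 0.115) and MYBL2 (adjusted p 0.0647). Libraries with the same number deviated together within each line over all genes, though replicates 2 and 3 did so across numbers as well. With the replicate number as a block both were called, CDC25B with an adjusted p of 0.0198 and MYBL2 with 0.0485, so that 60 of 60 genes were called, where 7.12% of all genes were called lower. When 1 NS1 library was left out, between 41 and 56 genes were called, with the lowest count without treated replicate 3 (where 1.18% of all genes were called lower) and the highest without treated replicate 1 (2.91%). The 19 genes that lost their call in at least 1 of these 6 fits were ASPM, BUB1, BUB3, CDC25C, CDK1, CENPA, CENPE, CENPF, CENPH, CENPM, HMMR, INCENP, KIF14, KIF18A, KIF20A, MKI67, NEK2, SPC25 and UBE2S, and the other 39 kept theirs. Without replicate 2 or without replicate 3 in all groups no gene was called, and 0% of all genes were. In each of these fits 59 of the 60 had an unadjusted p under 0.05, and how many of all genes did was not counted. With the block 26 and 24 were called, where 0.775% of all genes were called lower in each.

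**Figure D2:**
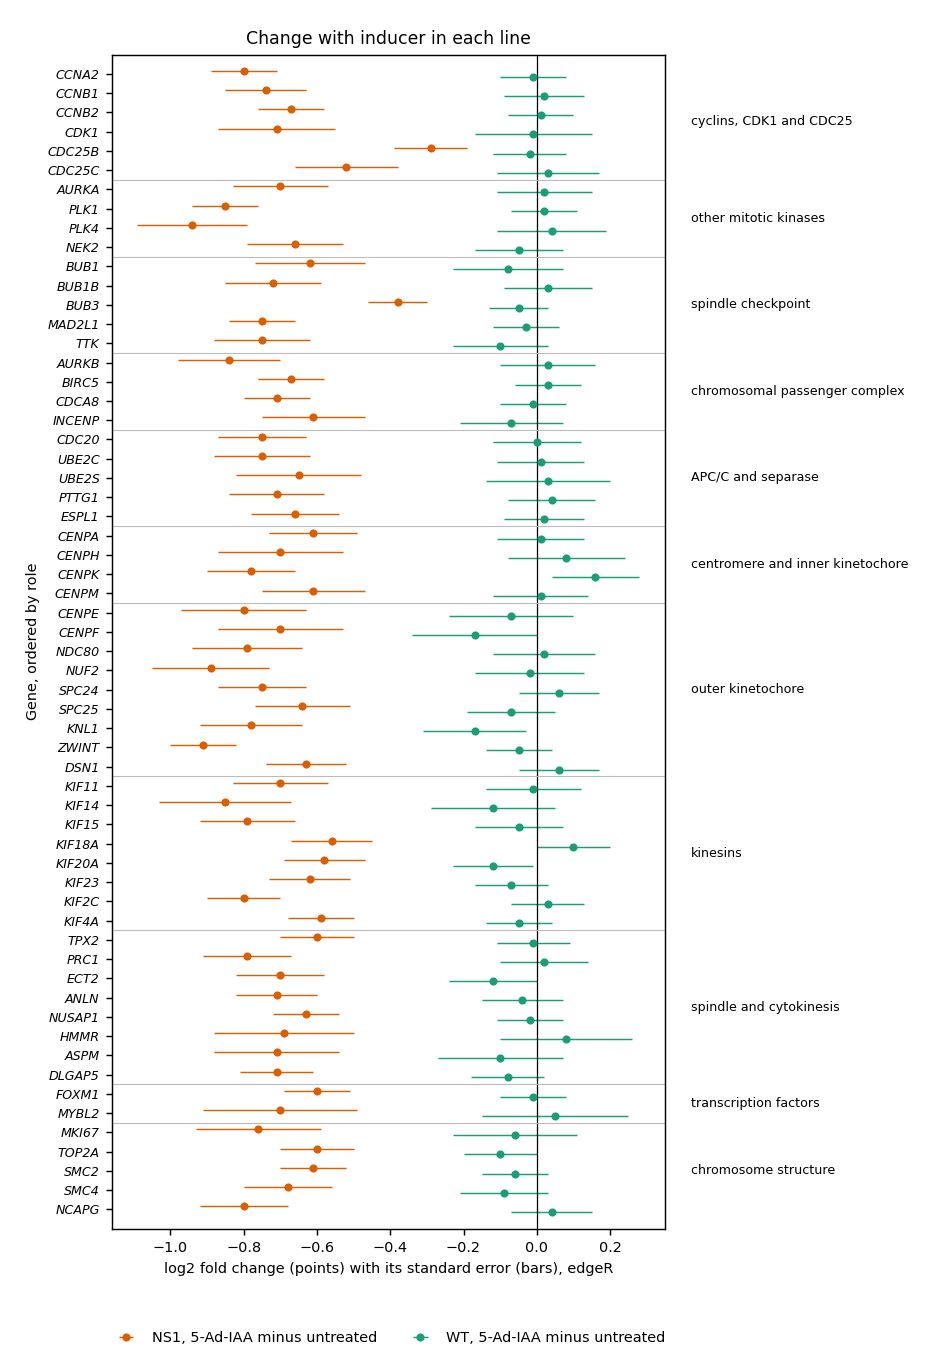
Log2 fold change with inducer (points) and its standard error (bars) for each of the 60 genes, in NS1 cells (orange) and in WT cells (green). The NS1 points lie between -0.94 and -0.29 and the WT points between -0.17 and 0.16.

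Promoter sequence is shown for 5 of the genes described below, because the 60 genes moved together and late cell cycle promoters are known for 2 short elements, the cell cycle homology region (letters TTTGAA or TTTAAA) and the CCAAT box. RefSeq (GRCh38.p14) promoter windows of 250 bases before and 50 bases after a start were matched for 50 of the 60 genes. Each line holds the 250 bases before the start, 5′ to 3′ on the gene's strand, and capitals mark the searched letters in either orientation (TTCAAA and ATTGG are the reverse forms).
ZWINT: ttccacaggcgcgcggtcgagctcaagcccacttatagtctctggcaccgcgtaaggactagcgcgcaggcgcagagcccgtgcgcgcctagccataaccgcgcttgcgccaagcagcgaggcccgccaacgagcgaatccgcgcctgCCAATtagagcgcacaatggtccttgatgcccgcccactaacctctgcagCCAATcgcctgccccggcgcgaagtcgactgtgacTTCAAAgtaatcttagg
PRC1: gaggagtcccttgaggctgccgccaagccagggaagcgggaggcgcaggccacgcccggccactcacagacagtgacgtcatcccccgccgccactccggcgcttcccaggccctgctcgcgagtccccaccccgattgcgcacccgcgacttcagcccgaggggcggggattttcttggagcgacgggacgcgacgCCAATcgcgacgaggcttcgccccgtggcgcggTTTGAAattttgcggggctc
KIF14: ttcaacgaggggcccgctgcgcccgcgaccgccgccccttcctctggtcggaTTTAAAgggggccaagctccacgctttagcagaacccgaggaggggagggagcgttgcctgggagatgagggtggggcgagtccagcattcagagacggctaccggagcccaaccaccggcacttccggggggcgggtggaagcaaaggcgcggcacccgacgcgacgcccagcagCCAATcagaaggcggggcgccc
TOP2A: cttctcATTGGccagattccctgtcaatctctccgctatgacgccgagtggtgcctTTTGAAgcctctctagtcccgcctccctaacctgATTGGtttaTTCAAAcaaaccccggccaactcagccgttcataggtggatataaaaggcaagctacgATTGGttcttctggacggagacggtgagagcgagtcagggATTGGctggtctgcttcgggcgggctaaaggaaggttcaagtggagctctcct
DSN1: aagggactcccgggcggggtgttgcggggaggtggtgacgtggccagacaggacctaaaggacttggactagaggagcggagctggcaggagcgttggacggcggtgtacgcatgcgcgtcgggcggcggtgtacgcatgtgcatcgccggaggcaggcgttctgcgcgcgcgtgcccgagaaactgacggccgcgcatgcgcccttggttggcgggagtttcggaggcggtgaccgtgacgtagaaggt
The ZWINT window is chr10:56361274-56361523 (minus strand), the PRC1 window chr15:90994536-90994785 (minus strand), the KIF14 window chr1:200620752-200621001 (minus strand), the TOP2A window chr17:40417897-40418146 (minus strand) and the DSN1 window chr20:36773764-36774013 (minus strand). In ZWINT the reverse form of TTTGAA ended 12 bases before the start, with CCAAT at 52 and 102 bases before it. In PRC1 the last base of TTTGAA lay 15 bases before the start and CCAAT began 53 bases before it. KIF14 had TTTAAA farther out, from 198 bases before the start, and CCAAT from 22 bases before it. TOP2A had 2 copies of TTTGAA and 4 of CCAAT, and DSN1 had none of these letters in the printed stretch.

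Over the full windows, TTTGAA or TTTAAA was present in 41 of 50 genes (82%), against 27.9% of all 27305 genes in the promoter table and 21.4% of the 11052 tested genes found there. CCAAT was present in 38 of 50 (76%), against 39.7% and 42.9%, and at 2 or more places in 24 of 50 (48%), against 12.9% and 16.2%. The size of the fall differed little with these letters. In NS1 cells the treated against untreated median was -0.71 (log2) for the 41 genes with TTTGAA or TTTAAA and -0.70 for the 9 without, and -0.70 for the 38 with CCAAT and -0.76 for the 12 without. These are letter matches, and no binding was measured.

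Cyclins and CDC25 phosphatases set off and sustain CDK1 activity. All 6 genes of this role were lower with inducer in NS1 cells and 5 were called, with a median of -0.69. CCNA2 (ENSG00000145386.10, chromosome 4), cyclin A, had 91.7, 83.6 and 81.2 CPM in the untreated and 49.6, 47.8 and 49.5 CPM in the treated NS1 libraries. The treated values lay close together and well below the untreated ones (-0.80, SE 0.09, adjusted p 0.00129, in log2). In WT cells the means were 82.5 ± 3.59 CPM (SD, n = 3) without and 82.1 ± 4.69 CPM with inducer. CCNB1 (-0.74) and CCNB2 (-0.67), the B-type cyclins, and CDK1 (-0.71), the kinase they activate, fell by like amounts. CDC25C (-0.52, adjusted p 0.0472), a phosphatase that removes inhibitory phosphates from CDK1, was near the threshold.

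CDC25B (ENSG00000101224.17, chromosome 20, 3786772 to 3806121 in GRCh38), a CDC25 phosphatase linked to the start of CDK1 activation, had the change closest to 0 of the 60 genes. Its untreated NS1 libraries had 318, 294 and 301 CPM and its treated ones 269.8, 239.9 and 235 CPM, with means of 320.1 ± 31.3 CPM in untreated and 315 ± 18.7 CPM in treated WT cells (SD, n = 3). The NS1 groups did not overlap, but the difference did not pass the test (-0.29, SE 0.10, adjusted p 0.115).

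The other mitotic kinases all fell, 4 of 4, with a median of -0.77. PLK4 (ENSG00000142731.11, chromosome 4), the kinase that starts centriole duplication, had the lowest value of all 60 genes. It had 17.7, 16.2 and 14.8 CPM in untreated and 8.11, 8.64 and 8.64 CPM in treated NS1 cells (-0.94, SE 0.15, adjusted p 0.00553, in log2). Its WT means were 14.7 ± 2.58 CPM without and 15.1 ± 2.06 CPM with inducer (SD, n = 3), close to the untreated NS1 level. PLK1 (-0.85), which acts from mitotic entry to cytokinesis, and AURKA (-0.70), the kinase of spindle poles, also fell. NEK2 (ENSG00000117650.13, chromosome 1), a centrosome kinase, went from 19.2, 15.8 and 16.9 CPM to 11.96, 11.1 and 9.63 CPM in NS1 cells (-0.66, SE 0.13, adjusted p 0.0104), and from 20.1 ± 1.65 to 19.3 ± 1.30 CPM in WT cells. It lost its call without treated NS1 replicate 3 (-0.58, adjusted p 0.0557).

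All 5 spindle checkpoint genes fell, with a median of -0.72, and BUB3 fell least. MAD2L1 (ENSG00000164109.14, chromosome 4), whose protein holds back CDC20, had 46.2, 44.4 and 46.4 CPM in untreated and 26.7, 25.8 and 28.8 CPM in treated NS1 libraries, with no overlap (-0.75, SE 0.09, adjusted p 0.0018). Its WT means were 49.9 ± 3.44 and 48.8 ± 1.13 CPM (SD, n = 3) without and with inducer. TTK (-0.75), the kinase that starts checkpoint signalling at kinetochores, and BUB1B (-0.72), part of the complex that inhibits the APC/C, lay near it, with BUB1 (-0.62), a kinetochore kinase, below them in size.

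BUB3 (ENSG00000154473.18, chromosome 10), the adaptor that brings BUB1 and BUB1B to kinetochores, had 188, 193 and 195 CPM in untreated and 148, 148 and 146 CPM in treated NS1 cells (-0.38, SE 0.08, adjusted p 0.0159). The treated NS1 values lay above those of treated WT cells and overlapped those of untreated WT cells. The WT libraries had 143, 141 and 147 CPM without and 141, 142 and 134 CPM with inducer. The call was lost when any 1 of the NS1 libraries of replicates 2 and 3 was left out (-0.39 to -0.37, adjusted p 0.0552 to 0.0759).

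The 4 genes of the chromosomal passenger complex, which corrects wrong attachments and later acts in cytokinesis, all fell, with a median of -0.69. AURKB (ENSG00000178999.13, chromosome 17), its kinase, had 31.8, 37.5 and 39.7 CPM in untreated and 18.5, 19.8 and 22.7 CPM in treated NS1 libraries (-0.84, SE 0.14, adjusted p 0.00553). Both groups lay below the WT libraries, which had 52.1, 62.2 and 66.6 CPM without and 53.8, 65.9 and 65.1 CPM with inducer. CDCA8 (-0.71) and BIRC5 (-0.67), 2 subunits that place the complex at centromeres, fell as well. INCENP (ENSG00000149503.13, chromosome 11), the scaffold, went from 63.8, 67.96 and 63.8 CPM to 41.1, 45.1 and 41.5 CPM (-0.61, SE 0.14, adjusted p 0.0215), with WT means of 93.3 ± 18.3 and 88.8 ± 12.3 CPM. It lost its call when any NS1 library other than treated replicate 1 was left out (-0.66 to -0.58, adjusted p 0.051 to 0.0883).

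The APC/C activator CDC20, the ubiquitin-conjugating enzymes UBE2C and UBE2S, securin (PTTG1) and separase (ESPL1) all fell, with a median of -0.71. UBE2C (ENSG00000175063.17, chromosome 20), which places the first ubiquitins on APC/C targets, had 87.4, 97.98 and 93.7 CPM in untreated and 49.3, 57.6 and 58.96 CPM in treated NS1 libraries, with no overlap (-0.75, SE 0.13, adjusted p 0.00593). Its WT libraries were above both, with means of 129 ± 12.3 and 129.7 ± 19.1 CPM (SD, n = 3). UBE2S (ENSG00000108106.14, chromosome 19), which extends the chains, had 193, 180.2 and 181 CPM and 129, 106 and 118 CPM in the same groups (-0.65, SE 0.17, adjusted p 0.0378). In WT cells it spread widely, with 133, 171 and 217 CPM without and 141, 195 and 193 CPM with inducer. It lost its call when any NS1 library other than treated replicate 1 was left out (adjusted p 0.095 to 0.141). CDC20 (-0.75), PTTG1 (-0.71) and ESPL1 (-0.66) completed the role.

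CENPA, the histone that marks the centromere, and 3 subunits of the inner kinetochore fell with a median of -0.66. CENPK (ENSG00000123219.13, chromosome 5) had 21.4, 16.5 and 17.3 CPM in untreated and 11.3, 10.038 and 10.6 CPM in treated NS1 libraries (-0.78, SE 0.12, adjusted p 0.00456). In WT cells it had 16.4, 17.9 and 18.1 CPM without and 20.037, 19.4 and 18.9 CPM with inducer, the highest value of the 60 genes in that comparison (0.16, adjusted p 1). CENPM (ENSG00000100162.15, chromosome 22) went from 22.6, 25.003 and 26.5 CPM to 13.98, 16.3 and 18.4 CPM in NS1 cells (-0.61, SE 0.14, adjusted p 0.0218), with WT means of 34.97 ± 5.003 and 35.2 ± 2.41 CPM. It lost its call without treated replicate 1 or 2 or untreated replicate 2 or 3 (-0.61 to -0.51, adjusted p 0.0595 to 0.0869). CENPH (-0.70) and CENPA (-0.61) lay between them.

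The outer kinetochore, which binds the microtubules, had the lowest median of the 11 roles, -0.78, with 9 of 9 genes called. ZWINT (ENSG00000122952.17, chromosome 10), which links the KNL1 arm to the checkpoint proteins and whose promoter is printed above, had 95.7, 88.96 and 89.4 CPM in untreated and 48.5, 51.1 and 46.3 CPM in treated NS1 libraries. The treated level was 53.2% of the untreated one (-0.91, SE 0.09, adjusted p 0.000573). WT libraries lay between these groups, with 71.9, 77.8 and 80.4 CPM without and 72.5, 75.6 and 74.2 CPM with inducer. The NDC80 complex, the main microtubule coupler, fell in all 4 subunits, NUF2 (-0.89), NDC80 (-0.79), SPC24 (-0.75) and SPC25 (-0.64). CENPE (-0.80), a kinetochore motor, KNL1 (-0.78), the platform of the checkpoint, and CENPF (-0.70), a large coiled-coil protein of the outermost layer, also fell.

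DSN1 (ENSG00000149636.15, chromosome 20, 36751791 to 36773818 in GRCh38), a subunit of the MIS12 complex that bridges the inner and outer kinetochore, fell least in this role. Its promoter held none of the searched letters, nor did that of MYBL2 (-0.70), and the fall differed little with these letters over the matched genes. DSN1 fell without overlap of the NS1 groups. It had 36.7, 36.6 and 40.2 CPM in untreated and 21.5, 25.5 and 26.2 CPM in treated NS1 libraries (-0.63, SE 0.11, adjusted p 0.00717). Its WT means were higher, at 51.6 ± 4.64 CPM without and 53.6 ± 3.34 CPM with inducer (SD, n = 3).

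**Figure D3:**
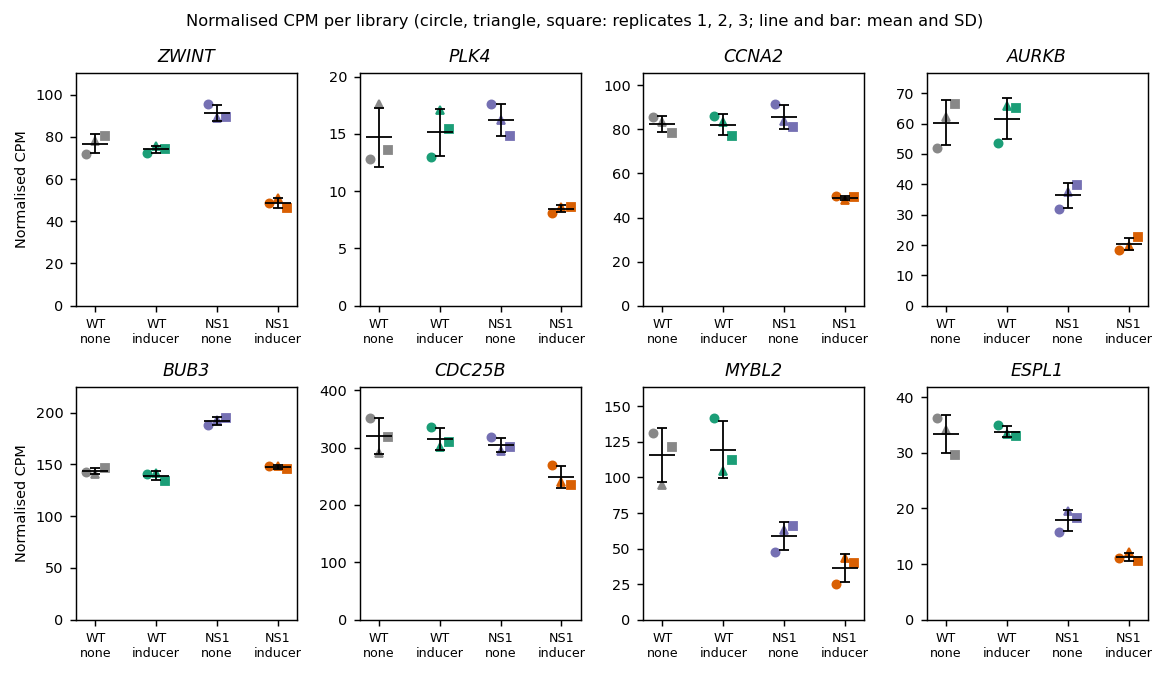
Normalised CPM of 8 genes in each library, with the mean (line) and SD (bar) of each group of 3 libraries, on axes that start at 0. ZWINT, PLK4, CCNA2 and CDC25B are lowest in treated NS1 cells with untreated NS1 cells near or above WT, AURKB, MYBL2 and ESPL1 are below WT in both NS1 groups, and BUB3 is highest in untreated NS1 cells.

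All 8 kinesins, the motors that move along spindle microtubules, fell, with a median of -0.66. KIF14 (ENSG00000118193.12, chromosome 1), a motor of cytokinesis, had 36.05, 34.4 and 33.6 CPM in untreated and 20.7, 19.8 and 17.2 CPM in treated NS1 libraries (-0.85, SE 0.18, adjusted p 0.0153), and lost its call without untreated replicate 2 or treated replicate 3 (adjusted p 0.0526 to 0.0783). Its WT means were 37.2 ± 9.69 CPM without and 34.3 ± 6.44 CPM with inducer, with a wide spread. KIF2C (-0.80), which depolymerises microtubules at centromeres, KIF15 (-0.79) and KIF11 (-0.70), which keep the spindle bipolar, and KIF23 (-0.62), KIF4A (-0.59) and KIF20A (-0.58), which act at the central spindle, lay between. KIF18A (ENSG00000121621.7, chromosome 11), which dampens chromosome movement, went from 28.6, 24.3 and 24.3 CPM to 19.3, 16.8 and 16.3 CPM (-0.56, SE 0.11, adjusted p 0.0103), with WT means of 33.96 ± 0.642 and 36.4 ± 1.26 CPM. Without treated replicate 3 it was not called (-0.50, adjusted p 0.0595).

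The 8 spindle and cytokinesis genes all fell, with a median of -0.70. PRC1 (ENSG00000198901.14, chromosome 15), the protein that bundles the microtubules of the central spindle, had 241, 253 and 259 CPM in untreated and 148, 146 and 142 CPM in treated NS1 libraries (-0.79, SE 0.12, adjusted p 0.00396). Its WT means were 244 ± 29.5 CPM without and 247 ± 34.9 CPM with inducer (SD, n = 3). TPX2 (ENSG00000088325.16, chromosome 20), the activator of AURKA on the spindle, had 418, 372 and 373 CPM and 278, 255 and 236 CPM in the same NS1 groups (-0.60, SE 0.10, adjusted p 0.00555), with WT means of 505 ± 7.24 and 502 ± 22.1 CPM. Between these were ANLN (-0.71), a scaffold of the contractile ring, DLGAP5 (-0.71) and NUSAP1 (-0.63), which stabilise spindle microtubules, ASPM (-0.71), a protein of spindle poles, ECT2 (-0.70), which switches on RhoA for cytokinesis, and HMMR (-0.69), a spindle protein.

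Of the transcription factors, FOXM1 (ENSG00000111206.12, chromosome 12, 2857681 to 2877155 in GRCh38), an activator of late cell cycle genes, fell from 191, 181 and 182 CPM to 133, 123 and 109.9 CPM in NS1 cells (-0.60, SE 0.09, adjusted p 0.00456), with WT means of 225 ± 9.79 and 224 ± 0.916 CPM. MYBL2 (ENSG00000101057.16, chromosome 20), the gene of B-MYB, had 47.4, 62.8 and 65.7 CPM in untreated and 24.95, 43.6 and 40.1 CPM in treated NS1 libraries. The groups did not overlap, and replicate 1 was the lowest library of both (-0.70, SE 0.21, adjusted p 0.0647). WT libraries had 132, 94.5 and 121 CPM without and 142, 105 and 112 CPM with inducer.

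All 5 genes of chromosome structure fell, with a median of -0.68. NCAPG (ENSG00000109805.10, chromosome 4), a subunit of condensin I, had 114, 97.5 and 101 CPM in untreated and 65.8, 60.6 and 53.1 CPM in treated NS1 libraries (-0.80, SE 0.12, adjusted p 0.00335), with WT means of 113 ± 8.39 and 116 ± 11.2 CPM. TOP2A (ENSG00000131747.15, chromosome 17), the topoisomerase that untangles sister chromatids, had 254, 252 and 244 CPM and 169, 174 and 153 CPM (-0.60, SE 0.10, adjusted p 0.0065), and its WT libraries were all higher, with means of 371 ± 42.1 and 345 ± 1.57 CPM. MKI67 (-0.76), the Ki-67 protein that coats mitotic chromosomes, and the condensin ATPases SMC4 (-0.68) and SMC2 (-0.61) also fell.

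In WT cells no change with the same compound was detected in these transcripts. None of the 60 genes was called (edgeR), none had an unadjusted p under 0.05, DESeq2 called none, and 0% of all genes tested were called. The median was -0.01 and the values ran from -0.17 for KNL1 to 0.16 for CENPK, with standard errors up to 0.20. The 2 groups overlapped in 55 genes. TTK, DLGAP5 and SMC4 had no overlap and were lower with inducer, where 1.73% of all genes were, and CENPK and KIF18A had none and were higher, where 1.68% were.

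Whether the inducer acted alike in both lines was the question of the interaction, which is the log2 fold change in NS1 cells minus that in WT cells. It was below 0 for 60 of 60 genes, with a median of -0.69 and a range from -0.98 for PLK4 to -0.27 for CDC25B. One gene was called, ZWINT (-0.86, SE 0.12, adjusted p 0.0424), where 0.0113% of all genes were called lower and 0.0225% in either direction. Of the 60 genes 59 had an unadjusted p under 0.05, as did 2196 of all 17775 genes tested. With the replicate number as a block 40 genes were called, where 1.86% of all genes were, and with a block within each line 59 were, where 7.06% were. ZWINT lost its call in 8 of the 12 fits that left out 1 library, namely any replicate 2 library, any replicate 3 library other than untreated WT, and untreated NS1 replicate 1 (-0.90 to -0.82, adjusted p 0.0875 to 0.16).

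The NS1 line also differed from WT without inducer in some of the genes. These comparisons share libraries with those above, so their values are given side by side and are not independent of them. Of the 60 genes 48 were lower in untreated NS1 than in untreated WT cells and 12 were higher. Of them 15 were called lower, where 7.05% of all genes were, and 1 was called higher, where 5.45% were. The median was -0.13, against 0 over all genes, and the SD over the 60 genes was 0.27, against 0.11 for the inducer effect in NS1 cells. The NS1 libraries lay wholly below the WT libraries in 22 genes, where 16.2% of all genes did, and wholly above in BUB3 and ZWINT, where 14.8% did. The mitochondrial share given above also differed between the lines, and its part in these differences was not tested.

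MYBL2 differed most, at 50.6% of the WT level (-0.98, SE 0.21, adjusted p 0.00833), from the library values given above. ESPL1 (ENSG00000135476.11, chromosome 12, 53268299 to 53293643 in GRCh38), separase, had 36.4, 34.1 and 29.6 CPM in untreated WT and 15.7, 19.6 and 18.3 CPM in untreated NS1 libraries (-0.91, SE 0.12, adjusted p 0.000533). SPC25 was lower by -0.78, AURKB by -0.73, ANLN by -0.60, TOP2A by -0.57, INCENP by -0.52 and CENPM by -0.50 on the log2 scale. UBE2C (-0.47), DSN1 (-0.45), KIF18A (-0.40), TPX2 (-0.38), BIRC5 (-0.31), NUSAP1 (-0.30) and SMC2 (-0.29) completed the 15. BUB3 was the gene called higher, at 134% of the WT level (0.42, SE 0.08, adjusted p 0.00565), and ZWINT was at 119% without passing the test (0.25, adjusted p 0.0759). All 6 of the cyclins, CDK1 and CDC25 genes and all 4 of the other mitotic kinases were not called, with values from -0.26 for PLK1 to 0.15 for PLK4. MYBL2, ESPL1, SPC25, AURKB, ANLN, TOP2A and BUB3 kept their calls with any 1 library left out. BIRC5, CENPM, DSN1, INCENP, KIF18A, NUSAP1, SMC2, TPX2 and UBE2C lost theirs in 2 to 6 of 6 such fits. In these fits 7 to 11 genes were called in all (7 without untreated NS1 replicate 2), where 3.34% to 5.56% of all genes were called lower. When replicate 2 or replicate 3 was left out in all groups, 1 gene was called, where 0.509% and 0.517% of all genes were called lower.

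With inducer, 59 of 60 genes were lower in NS1 than in WT cells, as were 8958 of all 17775 genes tested, and the median was -0.84. All 59 were called lower, where 14.5% of all genes were called lower and 28.2% in either direction. MYBL2 (-1.73), AURKB (-1.60), ESPL1 (-1.59), SPC25 (-1.35), ANLN (-1.27) and UBE2C (-1.23) were lowest, and 18 genes were at least 2-fold lower. The gene not called was BUB3 (0.09, adjusted p 0.461). AURKB had a treated NS1 mean of 20.3 ± 2.13 CPM against 61.6 ± 6.79 CPM in treated WT cells (SD, n = 3), and ESPL1 11.3 ± 0.803 CPM against 33.8 ± 0.9996 CPM. With any 1 library left out 56 genes kept their call, and CDC25B, MKI67 and UBE2S lost theirs in at least 3 of 6 fits. When replicate 2 or replicate 3 was left out in all groups, 44 and 45 genes were called, where 4.5% and 5.7% of all genes were called lower.

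**Figure D4:**
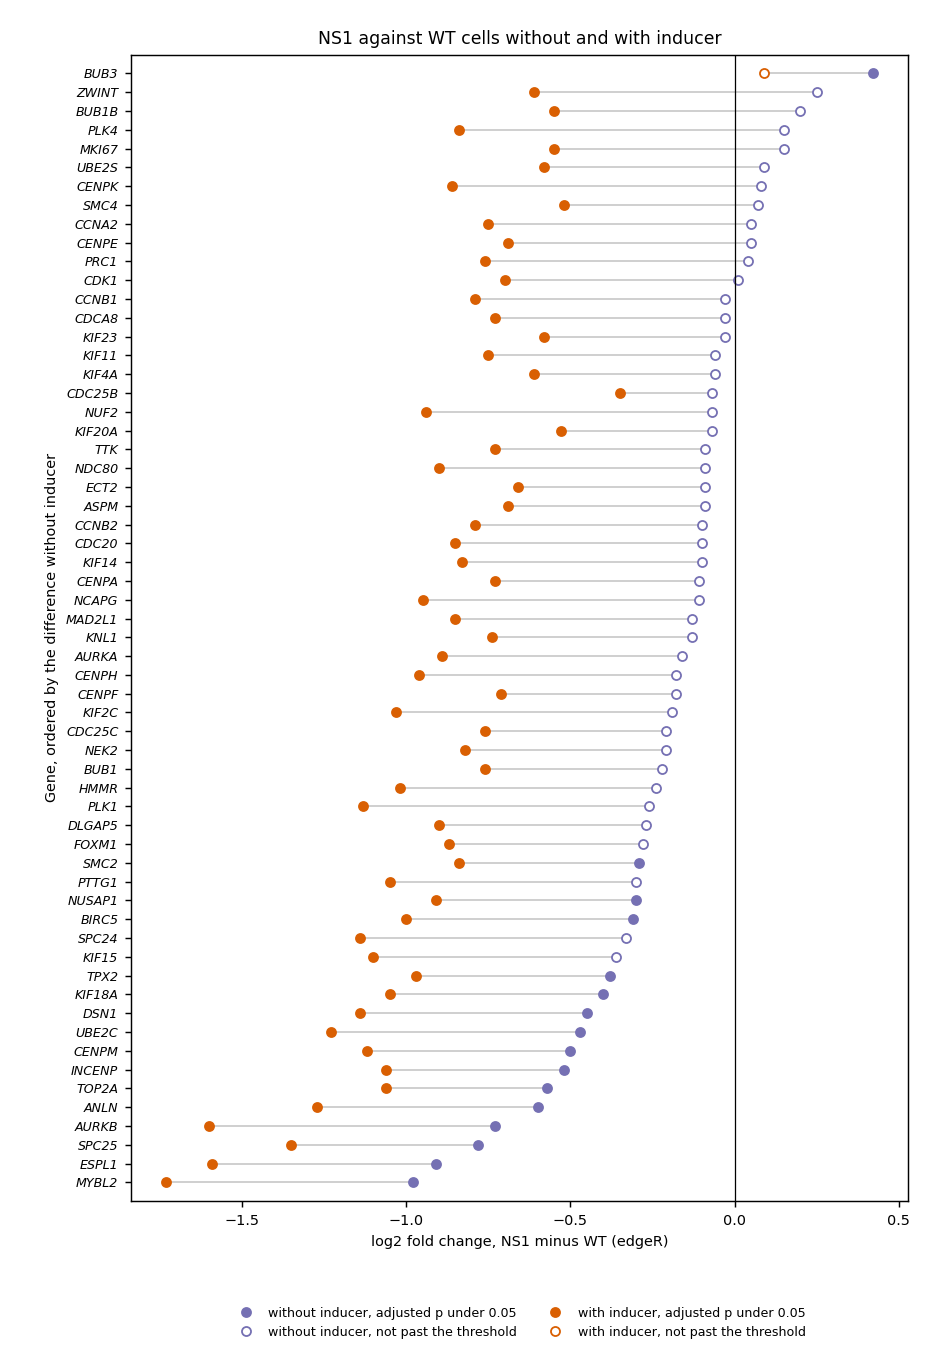
Log2 fold change of NS1 against WT cells for the 60 genes, without inducer (purple) and with inducer (orange), ordered by the difference without inducer. Filled points have an adjusted p under 0.05: 16 of 60 without inducer and 59 of 60 with inducer, and the orange points of MYBL2, AURKB and ESPL1 lie lowest.

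Levels of different genes were compared per kilobase of exon (union of exons in GENCODE release 29). Lengths were matched by identifier without version, and the version was the same for 12 of the 60 genes, TPX2 and PLK4 not among them. The lengths may therefore differ from those of the annotation used for counting, which is not given. On that scale TPX2 was the highest of the 60 genes in each of the 4 groups, with 140.07 CPM per kilobase in untreated WT and 71.124 in treated NS1 cells. The lowest was PLK4 in WT cells, with 3.2802 CPM per kilobase untreated, and ESPL1 in NS1 cells, with 2.0084 untreated and 1.2675 treated. The highest level was 42.7 times the lowest in untreated WT and 56.1 times in treated NS1 cells. The median over the 60 genes was 17.78 CPM per kilobase in untreated and 11.6 in treated NS1 cells.

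The other genes of the same machinery were counted by list. Of 93 such genes tested (94 listed), 81 were lower with inducer in NS1 cells and 12 were higher, with a median of -0.39. Of them 35 were called lower and 0 higher, where 3.39% and 2.76% of all genes were. With a block within each line 62 were called lower and 1 higher, where 12.8% and 13% of all genes were. The core subunits of the APC/C had values nearer to 0 than CDC20, UBE2C and UBE2S. Of these subunits 0 of 14 were called (edgeR), where 3.39% of all genes were called lower, 1 had an unadjusted p under 0.05 and DESeq2 called 0. A count of 0 of 14 is near that share, and no test between these subunits and the other APC/C genes was made. The median was -0.15, from ANAPC10 at -0.31 to ANAPC16 at 0.11, and with a block within each line 3 were called lower. Of the 4 APC/C regulators 3 were lower and 1 was called, FBXO5, an inhibitor of the complex (-0.48, adjusted p 0.0377). Among the remaining kinetochore subunits 23 of 25 were lower and 14 were called, with a median of -0.54. The values ran from SKA3 (-0.84, adjusted p 0.00524), part of the complex that tracks microtubule ends, to CENPC (0.10, adjusted p 0.787), the inner kinetochore hub. Of the remaining kinesins 6 of 6 were lower (median -0.66), with 3 called, or 6 with the block within each line. Of the remaining regulators of mitotic entry and exit 17 of 19 tested were lower and 11 were called (median -0.56). CDC25A (-0.87, adjusted p 0.0353), a phosphatase that activates CDKs, was lowest. ENSA (0.06, adjusted p 0.828), an inhibitor of the phosphatase PP2A-B55, was highest.

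In condensin and cohesin all 14 remaining genes were lower, with a median of -0.33, and 5 were called, where 3.39% of all genes were called lower. The values ran from NCAPH (-0.91, adjusted p 0.00328), the condensin I subunit that partners NCAPG, to WAPL (-0.06, adjusted p 0.841), which releases cohesin. With the block within each line 9 of the 14 were called, where 12.8% of all genes were called lower. Of the MuvB and DREAM components, the complexes that act on these promoters, 1 of 11 was called lower, where 3.39% of all genes were. With the block within each line 6 were called lower and 1 higher, where 12.8% and 13% of all genes were. In the fit without a block the values ran from LIN9 (-0.78, adjusted p 0.0552) to RBL2 (0.23, adjusted p 0.227). A list of 40 genes of DNA replication and the G1/S transition, taken for comparison, was lower in 40 of 40 genes. Of them 24 were called lower, where 3.39% of all genes were, and 39 with the block within each line, where 12.8% were. The median of this list was -0.67, from MCM10 (-0.91) to SLBP (-0.29). It lay close to the -0.70 of the mitosis and kinetochore genes, and no test of the difference between the lists was made.

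Some members share sequence with other genes, and whether the counting used strand is not given in the sources used here. The exons of PRC1 overlap those of ENSG00000284946 on the same strand (105% of the PRC1 level) and PRC1-AS1 on the other (46.4%). NUSAP1 overlaps ENSG00000285920 on the same strand (113%), KIF2C overlaps ENSG00000225721 on the other (76.8%), and CENPA overlaps SLC35F6 on the same strand (254%). CDC25C shares exon positions with FAM53C (363%), KIF4A with PDZD11 (64.9%), KIF18A with METTL15 (54.9%), CCNA2 with EXOSC9 (38.9%) and FOXM1 with ITFG2 (33%), all on the opposite strand. Of near-identical copies, UBE2SP1 had means of 52.3 CPM in untreated WT and 37.4 CPM in treated NS1 cells, UBE2SP2 30.9 and 20.9 CPM, CDC20P1 14.4 and 7.91 CPM and KIF4B 4.9 and 3.14 CPM, so the values of UBE2S, CDC20 and KIF4A are uncertain to the extent that reads were split between copies.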

How the data were processed

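Libraries were made from poly(A) RNA, per the labels' protocols, and the authors deposited 1 table of raw read counts per gene for the 12 libraries. The submitters' processing notes name STAR 2.7.3a, featureCounts 1.6.4 and hg38, without roles, and neither the annotation nor a strand setting is given in the sources used here. Symbols came from a name table that holds 60261 of the 60603 identifiers, and start and end only from GENCODE release 29 where the version matched (12 of the 60 genes). Each library was assigned to its group by its genotype and treatment labels.

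Counts were analysed in R 4.3.3 with edgeR 4.0.16 (limma 3.58.1). filterByExpr with the 4 groups removed genes of low count, libraries were scaled by TMM, and a quasi-likelihood model with a mean per group was fitted to all 12 libraries. The 5 comparisons were tested two-sided with Benjamini-Hochberg adjustment over all 17775 genes, and a call is an adjusted p under 0.05. The fit was tested on simulated data. No library was taken as deposited more than once, since the closest replicates still had 3.03 for chi-square divided by its degrees of freedom.

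The members, roles and lists were chosen with earlier results of these data known. Values in every library are given for the members of each role with the lowest and the highest log2 fold change between treated and untreated NS1 cells. Genes outside the 60 are named as the lowest and highest of their list. ESPL1 was added to the genes with library values, and the printed promoters were chosen among the named genes, after their values were seen. Promoter windows are those of RefSeq, at the most upstream start listed for the gene.

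All groups carry replicate numbers 1 to 3. Untreated and treated libraries of the same number deviated together from their group means, with correlations over all genes of 0.71, 0.39 and 0.38 in NS1 and 0.75, 0.38 and 0.26 in WT. All exceed 0.1, so the numbers were taken to pair the libraries within each line. Replicates 2 and 3 also correlated across numbers (0.37 and 0.28 in NS1, 0.37 and 0.25 in WT), and over the 60 genes alone replicate 3 of WT had -0.21. Counts and p-values are from the model without a block unless a block is named. The block was fitted for each number and for each number within each line. Alternatives were DESeq2 1.42.0, its size factors in edgeR, library totals, other filters, a fit of only the groups compared, and leaving out libraries. The block with a replicate number left out was added after the data were seen. Some marker genes and some overlaps of members with other genes are not reported here.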

Additional observations from a re-analysis of the deposited data

Results flagged for a closer look

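ZWINT, the outer kinetochore gene that links KNL1 to the checkpoint proteins, had a response to the inducer that differed between the lines by the test of the difference itself, an interaction of -0.86 on the log2 scale (SE 0.12, edgeR adjusted p 0.0424). It was lower with inducer in each of 3 pairs of NS1 libraries (-0.98, -0.80 and -0.95) and went from 76.7 ± 4.38 to 74.1 ± 1.57 CPM in WT cells (SD, n = 3). Over the fits that left out 1 library or 1 replicate number the adjusted p ranged from 0.00458 to 0.797, and over the fits with all 12 libraries from 5.84e-07 to 0.0445. Of the other 59 genes, 58 had an interaction with an unadjusted p under 0.05 that did not pass the adjusted threshold in the fit without a block. Among all 17775 genes tested, 2196 had an unadjusted p under 0.05 there. With the replicate number as a block 40 of the 60 genes passed it, where 1.86% of all genes were called lower. With a block within each line 59 did, where 7.06% were, and ZWINT was among them in both.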

How the results depend on the processing

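No gene among the 60 changed its direction in a called comparison under any alternative run. In the fits that left out no replicate, between 55 and 60 of the 60 genes were called lower with inducer in NS1 cells and 0 in WT cells. In NS1 against WT cells with inducer 58 or 59 were called lower. The share of all genes called lower was 2.43% to 12.8%, 0% and 7.99% to 19.3% in that order. The interaction depended most on the fit. It called 1 gene in the unblocked fit, 2 with DESeq2 size factors, 2 with library totals and 4 with at least 10 counts in every library. There 0.0113%, 0.0169%, 0.0169% and 0.0905% of all genes were called lower. It called 34 without a low-count filter, where 0.81% of all genes were called lower, and 38 with DESeq2, where 1.52% were. The replicate block gave 40, where 1.86% of all genes were called lower, and the replicate block within each line 59, where 7.06% were. The cause of these differences in count was not tested. In NS1 against WT cells without inducer, 9 genes were called in place of 16 when only those groups were fitted, with fewer libraries behind the estimate of the spread. Of all genes 5.16% were called lower and 4.14% higher in that fit, against 7.05% and 5.45%.

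When 1 replicate number was left out in all groups, calls ranged from 0 to 59 for the inducer effect in NS1 cells. They ranged from 0 to 33 for the interaction, and between the lines from 1 to 18 without and from 44 to 59 with inducer. The share of all genes called lower ranged from 0% to 5.22%, 0% to 1.53%, 0.509% to 10.8% and 4.5% to 17.1% in that order. In each of these 4 comparisons the lowest values came without replicate 2 or 3 and the highest without replicate 1. With the replicate block and replicate number 1, 2 or 3 left out, added after the data were seen, the counts were 60, 26 and 24 for NS1 cells and 45, 0 and 0 for the interaction. There 6.92%, 0.775% and 0.775% of all genes were called lower in NS1 cells, and 2.47%, 0% and 0% in the interaction. When 1 library was left out, the counts ranged from 41 to 56, from 0 to 19, from 7 to 11 and from 56 to 59 in the order of the 4 comparisons. The share of all genes called lower ranged from 1.18% to 2.91%, 0% to 0.322%, 3.34% to 5.56% and 10.7% to 12.8%. With 1 library or replicate number left out, DESeq2 was not run.

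Between the lines the replicate numbers paired the libraries less clearly, with correlations of 0.14, 0.07 and 0.19 without and 0.15, 0.12 and 0.01 with inducer. The replicate block there gave 21 calls without inducer, 19 lower and 2 higher, where about 12% and 10% of all genes were called. It gave 59 calls with inducer, all lower, where about 19% of all genes were called lower and 18% higher. Library totals in place of TMM moved the median of all genes by at most -0.08. With 3 libraries per group and a lowest member count of 99, the precision of single genes is limited.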

Other observations

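Before any inducer, the median difference between the NS1 line and WT varied over the roles. The median log2 difference without inducer was -0.63 for the 2 transcription factors, -0.41 for the 4 chromosomal passenger genes, -0.30 for the 5 APC/C and separase genes and -0.26 for the 8 spindle and cytokinesis genes, against -0.05 for the 6 cyclin, CDK1 and CDC25 genes and -0.08 for the 8 kinesins. With inducer the same medians were -1.30, -1.03, -1.05, -0.91, -0.75 and -0.79. The remaining roles had medians without inducer from -0.19 for the other mitotic kinases to -0.09 for the spindle checkpoint. These medians rest on few genes each, and no test between roles was made.

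Summed by role, the level of the 4 chromosomal passenger genes was 358.2 ± 15.9 CPM (SD, n = 3) in untreated WT, 279.66 ± 2.706 in untreated NS1 and 173.64 ± 3.751 in treated NS1 cells. The 5 spindle checkpoint genes had 364.4 ± 12.46, 404.16 ± 10.88 and 277.62 ± 13.45 CPM in the same groups, so their sum was higher in untreated NS1 than in untreated WT cells, with BUB3 alone at 192 against 143 CPM. The 9 outer kinetochore genes had 574 ± 66.8, 529.69 ± 44.77 and 310.7 ± 28.46 CPM.

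In the pairs of WT libraries with the same replicate number, 34, 29 and 36 of the 60 genes were lower with inducer, with medians of -0.02, 0 and -0.03.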
